A study of Mus musculus with 3 samples.

Results

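Adhesion and homing receptors hold haematopoietic stem cells in the bone marrow and guide them back to it. Their genes were read here on 3 expression arrays of mouse long-term stem cells taken shortly after gamma irradiation. The 10 genes described are those of an adhesion and homing list: the chemokine receptor gene Cxcr4, the integrin alpha genes Itga4, Itga5, Itga6 and Itga9, the integrin beta genes Itgb1 and Itgb2, and Cd44, Vcam1 and Selplg. They were chosen by name, with earlier results of these data known, and all 10 were among the 23185 named genes of the deposited table. The label "niche adhesion and homing receptors" describes what the encoded proteins are known to do.

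Cells negative for lineage markers, Flk2 and CD48 and positive for c-Kit, Sca and CD150 were sorted from bone marrow and kept overnight in serum-free Stemspan SFEM medium, per the labels' protocols. They then received 0 Gy (the unirradiated cells), 0.02 Gy (low dose) or 2.5 Gy (high dose), and RNA was extracted 2 hours later. All groups had therefore been sorted and held in culture, away from the marrow, before any dose was given. The labels name no strain, age, sex or number of mice. There was 1 array for each dose. Every difference below is thus between single arrays, without replicates to set it against, and no test was run. Values are the deposited log2 expression values, and a gene counts as differing when 2 arrays lie at least 2-fold (1 log2 unit) apart. In pooled cells, fewer cells of a type and less RNA per cell cannot be told apart.

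Stem cells leave and re-enter the marrow by a series of contacts. Selectins on vessel walls slow the cells by binding P-selectin glycoprotein ligand 1, the product of Selplg, and glycoforms of CD44. The chemokine CXCL12 then acts through CXCR4, and integrins grip VCAM-1, fibronectin and laminins. Each integrin is a pair of an alpha and a beta chain: alpha-4, alpha-5, alpha-6 and alpha-9 can each pair with beta-1, the product of Itgb1, while beta-2, the product of Itgb2, pairs with leukocyte alpha chains.

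Among the 10 genes, only Itga4 differed by 2-fold between any 2 arrays. It lay lowest at 2.5 Gy and highest at 0.02 Gy, with the unirradiated array between them. No member differed 2-fold from the unirradiated array at either dose. At 0.02 Gy, 9 of the 10 genes lay above their unirradiated value, by 0.07 to 0.55 on the log2 scale, and Vcam1 lay below it. At 2.5 Gy, 4 lay above the unirradiated value and 6 below it.

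A gene was counted among those past a minimum level when its mean over the 3 arrays reached 4.55, the median of all named genes. This left 11593 genes, among them 8 of the 10 members. Itga9 and Vcam1 lay below the minimum on every array. Itgb2 passed narrowly, with a mean of 4.56, and was above the minimum on the low-dose array only. The deposited scale has no known background. Of 11 measured marker genes of B and T cells, which the sort removes, 3 passed the same minimum, the highest being Pax5 with a mean of 5.23. Passing the minimum therefore does not show that a gene was above background. At 0.02 Gy these 3 genes differed from unirradiated cells by -0.68 (Cd5), 0.06 (Pax5) and -0.05 (Cd79b). Between the doses they differed by 0.56, -0.09 and 0.25 in the same order.

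**Figure D1:**
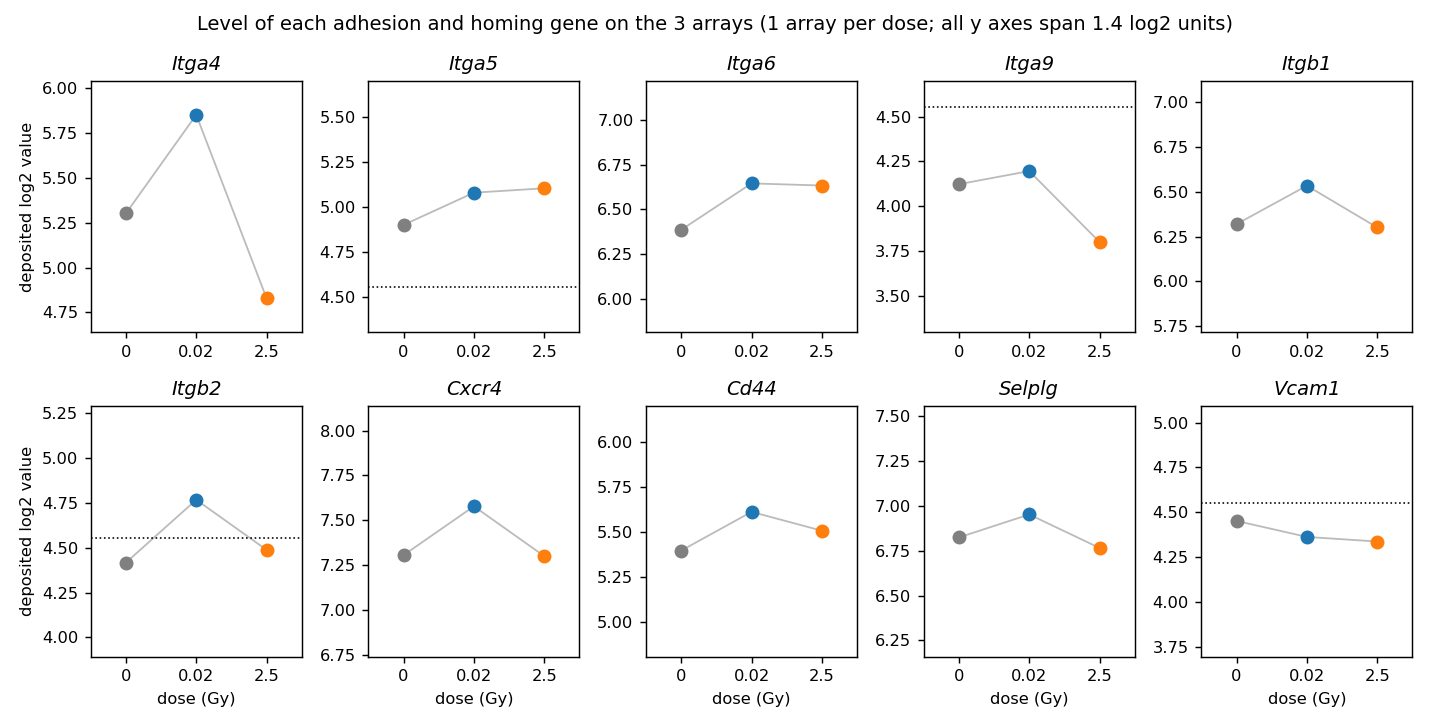
Deposited log2 value (y axis) of each of the 10 genes on the unirradiated, 0.02 Gy and 2.5 Gy arrays (x axis, in order of dose), 1 point per array; every y axis spans 1.4 log2 units and the dotted line is the level minimum of 4.55. Itga4 has the widest range over the arrays, 1.02, and the other 9 genes range over less than 0.4.

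Of the alpha integrin genes, Itga4 encodes the alpha-4 chain, which with beta-1 forms VLA-4, the receptor by which stem cells hold VCAM-1 and fibronectin. Itga4 was at 5.30 in unirradiated cells, 5.85 at 0.02 Gy and 4.83 at 2.5 Gy. The 2.5 Gy array was thus 2.03-fold lower than the 0.02 Gy array (log2 difference -1.02). Of the 11593 genes, 110 lay lower than Itga4 in that comparison, and 269 lay as far or farther from 0 in either direction. The difference stood just past the 2-fold line: it was -0.99 after quantile normalization, short of 2-fold, and -1.04 after median centring and -1.03 after loess. Against the unirradiated array, Itga4 was 1.46-fold higher at 0.02 Gy (0.55) and 1.39-fold lower at 2.5 Gy (-0.47). These 2 differences share the unirradiated array, and 14.2% and 15.9% of genes lay as far or farther from 0.

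The sequence just before the annotated start of Itga4 is shown because this was the member past 2-fold, and that of Cxcr4, described below, is shown for comparison. Both are the 250 bases before the start in GRCm38.p6, from RefSeq, read in the direction of the gene. Itga4 is on the plus strand, at chr2:79255176-79255425, and Cxcr4 on the minus strand, at chr1:128592300-128592549. Capitals mark matches on either strand to the GC box, GGGCGG, and the TATA box, TATAAA.
Itga4: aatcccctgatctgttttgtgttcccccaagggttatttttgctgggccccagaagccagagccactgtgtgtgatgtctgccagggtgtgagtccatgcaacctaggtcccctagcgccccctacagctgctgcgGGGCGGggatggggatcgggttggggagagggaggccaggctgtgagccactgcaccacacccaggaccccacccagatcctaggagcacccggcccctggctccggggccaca
Cxcr4: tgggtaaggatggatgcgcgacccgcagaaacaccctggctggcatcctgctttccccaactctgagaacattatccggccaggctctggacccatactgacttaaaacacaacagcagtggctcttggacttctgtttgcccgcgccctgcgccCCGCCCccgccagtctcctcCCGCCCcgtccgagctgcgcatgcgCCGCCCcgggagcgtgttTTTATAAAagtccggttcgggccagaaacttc

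The Itga4 stretch held 1 GC box and no TATA box letters. The Cxcr4 stretch held 3 GC boxes, and TATA box letters on both strands that overlap each other. Of 32851 stretches of this length before RefSeq starts in that table, 32.7% held a GC box and 12.4% a TATA box. Sequences were matched for 6 of the 10 genes (Cxcr4, Itga4, Itga5, Itga9, Itgb1 and Cd44); the others were Itga6, Itgb2, Vcam1 and Selplg. Of the 6, 4 held a GC box and 1 a TATA box. The Itga9 stretch, which held neither, is at chr9:118711442-118711691 on the plus strand. It lies inside the annotated gene (118606709 to 118901003), so it precedes an internal start and not the start of the gene. These are matches of letters, not measured binding.

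Itga5 encodes the alpha-5 chain of the fibronectin receptor VLA-5. It was at 4.90 in unirradiated cells, 5.08 at 0.02 Gy and 5.10 at 2.5 Gy. Both irradiated arrays lay above the unirradiated one, by 0.18 and 0.20, and differed from each other by 0.02. Itga6 encodes the alpha-6 chain of laminin receptors, which is present on stem cells and takes part in homing. It was at 6.39, 6.65 and 6.63 in the same order of dose. It too was higher on both irradiated arrays, by 0.26 and 0.25, and the doses differed by -0.01, a difference whose sign turned after quantile normalization and loess. Itga9 encodes the alpha-9 chain, which binds osteopontin and tenascin-C. At 4.12, 4.20 and 3.80 it stayed below the level minimum, so its differences of 0.07 at 0.02 Gy, -0.32 at 2.5 Gy and -0.40 between the doses carry little weight.

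The beta chain genes moved less than Itga4. Itgb1, which encodes the beta-1 partner of these alpha chains, was at 6.32 in unirradiated cells, 6.53 at 0.02 Gy and 6.30 at 2.5 Gy. The low-dose array was highest, by 0.21 over the unirradiated array, and 2.5 Gy lay 0.23 below 0.02 Gy. Itgb1 followed the order of Itga4 between the doses, by a smaller difference. Itgb2, the beta chain of LFA-1 and Mac-1, was at 4.42, 4.77 and 4.49. It was highest at 0.02 Gy, 0.35 above the unirradiated array, and 0.28 lower at 2.5 Gy than at 0.02 Gy.

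The chemokine receptor gene Cxcr4 was at 7.31 in unirradiated cells, 7.58 at 0.02 Gy and 7.30 at 2.5 Gy. The unirradiated and high-dose arrays differed by 0.01, and the low-dose array stood 0.27 above the unirradiated one. That low-dose difference shrank to 0.05 after quantile normalization and 0.06 after loess. Genes in the top decile of level, where Cxcr4 lies, had a median low-dose difference of 0.21 in the deposited values. With these scalings Cxcr4 was instead lower at 2.5 Gy than in unirradiated cells, by -0.19 and -0.17, and after median centring it was 0.04 higher.

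Cd44 encodes a receptor for hyaluronan. It was at 5.40 in unirradiated cells, 5.61 at 0.02 Gy and 5.51 at 2.5 Gy, differences of 0.22 and 0.11 from the unirradiated array. Selplg was at 6.82, 6.95 and 6.77. Its low-dose difference of 0.13 was below the 0.21 median of its level decile, and its sign turned after quantile normalization (-0.07) and loess (-0.05). Vcam1 encodes the counter-receptor of VLA-4, found on vessels, stroma and macrophages and on some blood cells. At 4.45, 4.36 and 4.34 it lay below the level minimum on all arrays and had the smallest range of the 10 genes, 0.11. No difference in Vcam1 between doses could be read at this level.

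**Figure D2:**
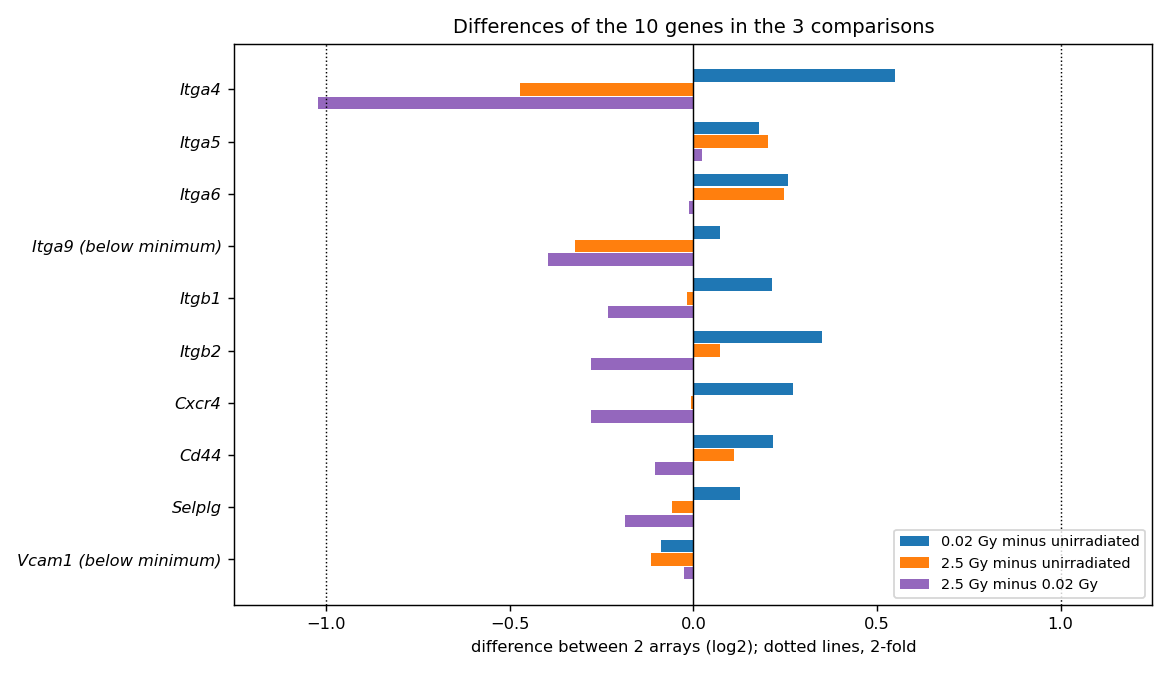
Log2 difference (x axis) of each of the 10 genes (y axis) in the 3 comparisons, 1 bar per comparison between 2 single arrays, with dotted lines at 2-fold. Itga4 between 2.5 Gy and 0.02 Gy, at -1.02, is the only bar to pass a dotted line.

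As a group, the members were set against all genes. At 0.02 Gy against unirradiated cells, 0 of 8 members past the minimum were higher by 2-fold or more and 0 lower, where 1.33% and 1.14% of genes were. Above 0 were 9 of all 10, with a median of 0.22, against 47.4% of all 23185 named genes with a median of -0.02. Among genes past the level minimum, 8 of 8 members lay above 0 with a median of 0.24, against 54.2% of genes and a median of 0.04. Itgb2 is among the 8 because of its low-dose value, so that count is not independent of the direction. After quantile normalization and loess, 7 of 8 lay above 0, with medians of 0.15 after each, and Selplg was the exception. After median centring 8 of 8 did. The shares of genes past the minimum were 49.6% after quantile normalization, 49.7% after loess and 62.4% after median centring.

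The arrays differed by level, and this touches the members. The median low-dose difference was -0.07 in the lowest decile of the genes past the minimum and 0.21 in the highest, and the share above 0 was 40.8% and 74.3%. Set against the median of its own decile, the low-dose difference was higher for 7 of the 8 members, with Selplg lower. Without Itgb2, which passed the minimum through its low-dose value, 6 of 7 were higher. The low-dose array gave the highest of the 3 values for 8 of all 10 members, as it did for 33.4% of named genes. The exceptions were Itga5, highest at 2.5 Gy, and Vcam1, highest in unirradiated cells.

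At 2.5 Gy against unirradiated cells, 0 of 8 members were higher by 2-fold or more and 0 lower, where 1.15% and 0.578% of genes past the minimum were. Of the 8, 4 lay above 0 with a median of 0.03, near the 53.4% of genes and their median of 0.02. The sign of the members' median was not stable: it was -0.02 after quantile normalization and loess and -0.01 both without a minimum and at the 75th percentile. Of all 10, 4 lay above 0, against 46.6% of named genes. The differences ran from -0.47 for Itga4 to 0.25 for Itga6. After median centring, 6 of 8 lay above 0, as Cxcr4 and Itgb1 changed sign. That scaling put 60.0% of genes past the minimum above 0, with a median of 0.07 against 0.08 for the members.

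Between the doses, 2.5 Gy against 0.02 Gy, 1 of 8 members (Itga4) was at least 2-fold lower and 0 higher, where 1.06% of genes were lower and 1.44% higher. The count of lower members was 0 after quantile normalization. Of the 8, only Itga5 lay above 0 (0.02), against 49.4% of genes, and the median was -0.21. Of all 10 it was again only Itga5, against 49.9% of named genes. After quantile normalization and loess Itga6 joined it. This comparison shares the low-dose array with the first, so the high low-dose values enter both.

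**Figure D3:**
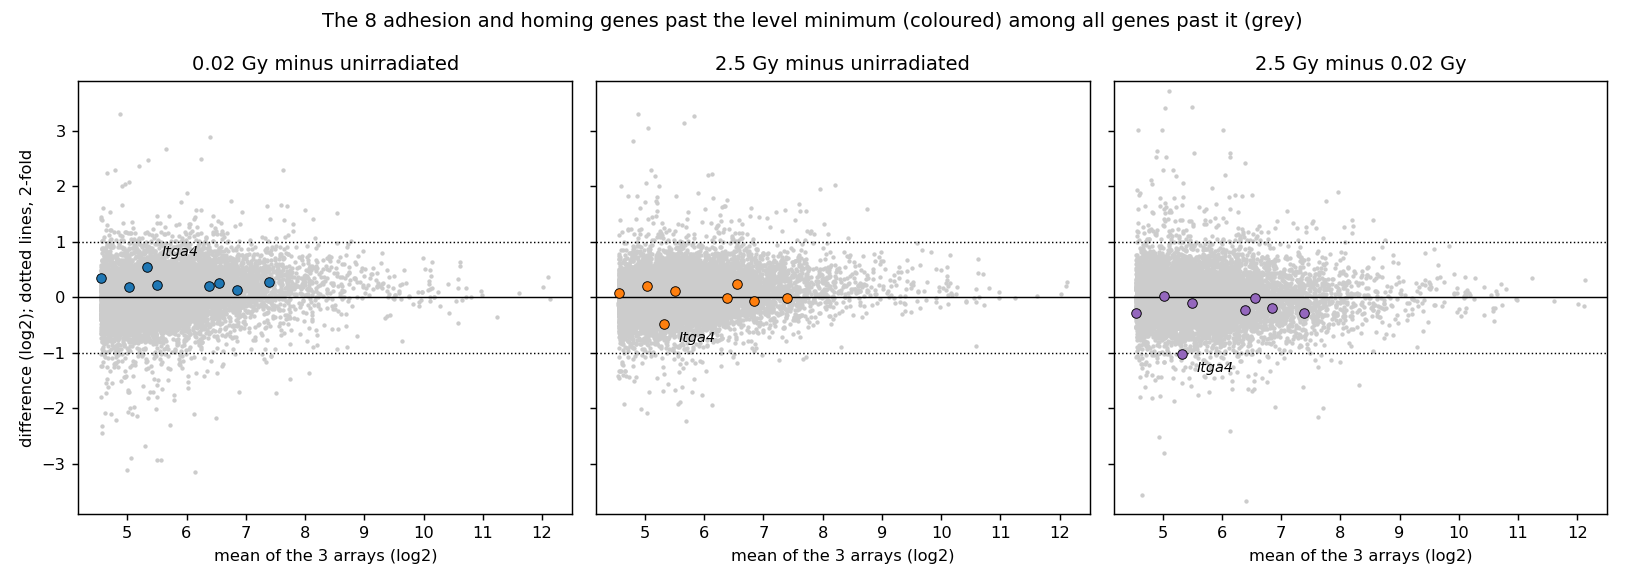
Log2 difference (y axis) against the mean of the 3 arrays (x axis, log2) for the 11593 genes past the level minimum in grey and the 8 members among them in colour, 1 panel per comparison. The low-dose panel has all 8 members above 0, and Itga4 lies near the lower 2-fold line (dotted) between the doses.

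Over all genes these shares stand for 154 higher and 132 lower genes in 0.02 Gy cells, for 133 and 67 in 2.5 Gy cells, and for 167 and 123 between the doses. Higher genes were 53.8% of those counted at 0.02 Gy, 64.9% after median centring, but 45.4% after quantile normalization (128 higher, 154 lower) and 45.6% after loess (124 and 148). Kit, used in the sort, was at 8.58, 8.78 and 8.50 in order of dose. Slamf1, which encodes CD150, was at 5.24, 4.75 and 4.84, highest in unirradiated cells. By contrast Cd48, selected against, was below the minimum, at 3.62, 3.31 and 3.40. Flt3, which encodes Flk2 and was also selected against, was at 4.60, 4.95 and 4.93. The summed log2 level of the 8 measured stem cell markers was 50.8, 52.1 and 50.7. Of the 8, 6 were higher at 0.02 Gy than in unirradiated cells, where 54.2% of genes past the minimum were. Slamf1 and Procr were lower. At 2.5 Gy 2 of the 8 were higher than in unirradiated cells and 6 lower, where 53.4% of genes were higher.

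Itgb2 and Vcam1 are also expressed by mature myeloid cells and macrophages. Of 9 macrophage markers, 5 passed the level minimum, and their summed level over all 9 was 40.4 in unirradiated cells, 39.4 at 0.02 Gy and 39.1 at 2.5 Gy. Their part in the Itgb2 and Vcam1 values was not tested. Of 8 neutrophil and granule markers, 4 passed, with sums of 38.7, 41.0 and 40.8. S100a8 was 1.30 higher at 0.02 Gy and 1.24 higher at 2.5 Gy than in unirradiated cells, and S100a9 1.12 and 1.56 higher. Elane was 0.94 and 0.12 higher and Mpo 0.16 and 0.70 higher, so all 4 markers past the minimum were higher at both doses. Ngp (-0.92), Ltf (-0.51) and Cd177 (-0.13) were lower at 0.02 Gy and Camp was 0.37 higher, and these 4 had means below the minimum. Itgb2 itself was 0.35 higher at 0.02 Gy and 0.07 higher at 2.5 Gy, and the part of these genes in that difference was not tested. The sums for 7 marrow stroma markers (28.6, 28.6 and 29.1) and 5 endothelial markers (23.5, 22.6 and 22.3) rest on 2 genes each past the minimum.

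Other genes of the adhesion and homing machinery were described from 6 further lists, of which 121 of 128 genes were measured and 88 passed the level minimum. Of the 88, 68 lay above 0 at 0.02 Gy (median 0.16), 59 at 2.5 Gy (median 0.13) and 45 between the doses (median 0.01). The shares over all genes past the minimum were 54.2%, 53.4% and 49.4%. In the highest decile of level they were 74.3%, 69.5% and 44.7%, and the 88 genes were not set against their own deciles. After quantile normalization the counts against unirradiated cells were 54 and 52, where 49.6% and 48.4% of all genes lay above 0. At least 2-fold apart in any comparison were 3 genes: Rgs18, Itgb1bp1 and Icam1. At 0.02 Gy 1 of the 88 was higher (Rgs18) and 0 lower, where 1.33% and 1.14% of all genes past the minimum were. At 2.5 Gy 0 were higher and 0 lower, where 1.15% and 0.578% were. Between the doses 1 was higher (Icam1) and 1 lower (Itgb1bp1), where 1.44% and 1.06% were.

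Of the other integrin subunits, some lay higher and some lower at 0.02 Gy. Of 20 measured, 7 passed, and 4 of these lay above 0 at 0.02 Gy, where 54.2% of all genes past the minimum did. Their median of 0.02 became -0.10 after quantile normalization and 0.09 after median centring. Itga2b, the platelet alpha chain also present on early progenitors, was at 6.35, 6.76 and 6.34 in order of dose, and Itgam, the Mac-1 alpha chain, at 4.72, 5.15 and 4.73. Both had the low-dose array highest. Itga7, a laminin receptor chain, was lowest there, at 4.62 against 5.42 in unirradiated cells. Itgb3 was highest at 2.5 Gy, at 6.92 against 6.44 in unirradiated cells.

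Genes that activate integrins and link them to actin had 17 of 21 above 0 at 0.02 Gy, with a median of 0.21. After quantile normalization and loess 14 of 21 lay above 0. The shares over all genes past the minimum were 54.2%, then 49.6% after quantile normalization and 49.7% after loess. Itgb1bp1 encodes ICAP-1, which binds the beta-1 tail and restrains its activation. It was at 4.39 in unirradiated cells, 5.33 at 0.02 Gy and 4.24 at 2.5 Gy. It was 1.09 lower at 2.5 Gy than at 0.02 Gy, and this was more than 2-fold under all 3 scalings. However, only its low-dose value was above the level minimum. Itgb1bp1 passed through that value, so its place in the counts above 0 at 0.02 Gy and lower between the doses is not independent of the direction. Its order of arrays was that of Itga4. Of all genes past the minimum, 37.4% were highest at 0.02 Gy and 30.0% lowest at 2.5 Gy. How many had both, as Itga4 does, was not counted, so a shared order does not link genes to Itga4. Fermt3, the kindlin that activates integrins in blood cells, was at 5.87, 6.46 and 6.58, and Ilk, the integrin-linked kinase, at 4.97, 5.68 and 5.56. Both were higher on each irradiated array than in unirradiated cells. Lims1, which encodes the Ilk partner PINCH-1, was higher at 0.02 Gy (6.49) than in unirradiated cells (5.86), and at 2.5 Gy was at 5.93.

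Of 22 genes of Cxcr4 signalling and migration past the minimum, 16 lay above 0 at each dose against unirradiated cells, with medians of 0.11 and 0.14. Over all genes past the minimum, 54.2% and 53.4% did. After quantile normalization 11 and 13 of the 22 did, near the 49.6% and 48.4% of all genes. Rgs18, a regulator of G protein signalling in megakaryocytic and stem cells, was at 7.00, 8.08 and 7.44. It was 1.08 higher at 0.02 Gy than in unirradiated cells, and 0.84 and 0.85 after quantile normalization and loess, short of 2-fold. Rgs1, which dampens chemokine receptor signals, was at 6.28, 7.03 and 7.24. Cd164, a sialomucin that takes part in the migration of progenitors to CXCL12, was at 6.58, 7.54 and 7.13. Gnai2, the G protein subunit that CXCR4 signals through, was at 6.63, 7.12 and 7.41. All 4 were higher on each irradiated array than on the unirradiated one.

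**Figure D4:**
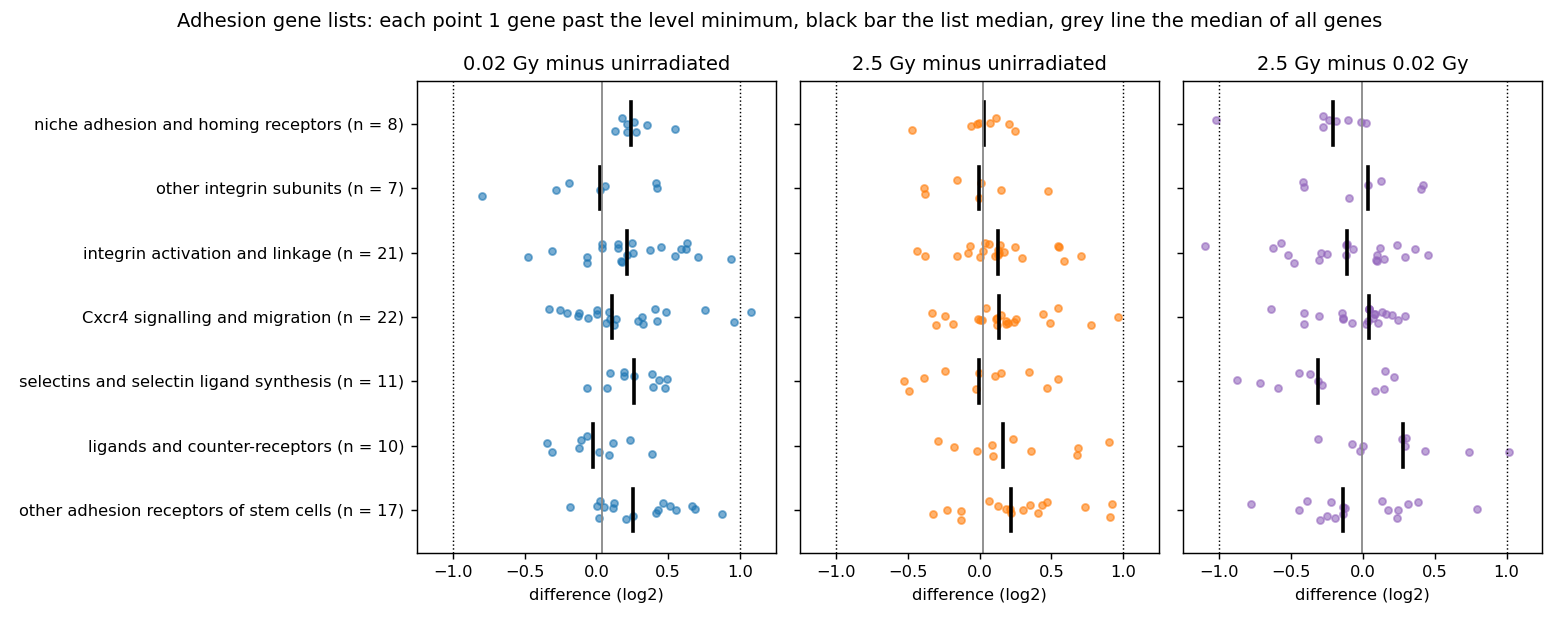
Log2 difference (x axis) of each gene past the level minimum in the list of members and 6 further adhesion lists (y axis, with the number of genes), 1 panel per comparison; black bars are list medians, the grey line is the median of all genes and dotted lines mark 2-fold. Between the doses the medians are -0.21 for the members, -0.31 for selectins and selectin ligand synthesis and 0.28 for ligands and counter-receptors.

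Selectins and the enzymes that build their ligands had 10 of 11 above 0 at 0.02 Gy (median 0.26) and 5 of 11 at 2.5 Gy (median -0.01). Between the doses 4 of 11 lay above 0 (median -0.31). The shares over all genes past the minimum were 54.2%, 53.4% and 49.4%. After quantile normalization 8 of 11 lay above 0 at 0.02 Gy and 7 of 11 at 2.5 Gy, against 49.6% and 48.4% of all genes. The 2.5 Gy median changed sign under all 3 scalings: 0.01 after quantile normalization and loess and 0.04 after median centring. The median between the doses stayed between -0.33 and -0.31 under the 3 scalings, but was 0.15 among genes past the 75th percentile of level. Selp, which encodes P-selectin, the partner of the Selplg product, was at 4.99, 5.48 and 4.61, with the order of arrays seen for Itga4. St3gal6, a sialyltransferase of selectin ligands, was at 5.04, 5.23 and 4.52, and the galactosyltransferase gene B4galt1 at 6.13, 6.23 and 5.64. Both were lowest at 2.5 Gy. C1galt1, which starts the glycan core of such ligands, was at 5.59, 5.98 and 6.13 and was highest there.

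Ligands and counter-receptors had 5 of 10 above 0 at 0.02 Gy and 7 of 10 at 2.5 Gy, with medians of -0.02 (0.01 after quantile normalization) and 0.16. Over all genes past the minimum, 54.2% and 53.4% lay above 0. Among genes past the 75th percentile of level the 2.5 Gy median was 0.68, and that between the doses was 0.52, against 0.28 at the main minimum. Icam1, the ligand of the beta-2 integrins and a known NF-kappaB target, was at 5.87 in unirradiated cells, 5.75 at 0.02 Gy and 6.77 at 2.5 Gy. It was 1.02 higher at 2.5 Gy than at 0.02 Gy and 0.90 higher than in unirradiated cells. Icam2, another ligand of these integrins, was at 5.46, 5.85 and 6.15. For Icam1, the high-dose array stood apart, whereas Itgb2 differed from unirradiated cells by 0.07 at that dose. Emilin1, an alpha-4 and alpha-9 integrin ligand, was at 5.91, 5.85 and 6.59. Cxcl12, which encodes the ligand of CXCR4, was at 5.36, 5.01 and 5.44, lowest at 0.02 Gy. A relation between its values and those of Cxcr4 was not tested. Fn1, which encodes fibronectin, lay below the minimum on all arrays (3.64, 3.70 and 3.69); it was chosen after its values were seen.

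Other adhesion receptors of stem cells had 16 of 17 above 0 at 0.02 Gy (median 0.25) and 13 of 17 at 2.5 Gy (median 0.22). The shares over all genes past the minimum were 54.2% and 53.4%. At 0.02 Gy 13 of 17 lay above 0 after quantile normalization and after loess, against 49.6% and 49.7% of all genes. Pecam1, a junction molecule of vessels and blood cells, was at 6.11, 6.99 and 6.54, highest at 0.02 Gy. Cd34, a sialomucin of progenitors, was at 7.04, 7.50 and 6.72, in the order of Itga4, and 0.78 lower at 2.5 Gy than at 0.02 Gy. F11r, which encodes JAM-A, was at 6.27, 6.39 and 7.19. Ctnnb1, the cadherin partner beta-catenin, was at 6.01, 6.67 and 6.92. F11r and Ctnnb1 were highest at 2.5 Gy, 0.92 and 0.91 above the unirradiated array.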

How the data were processed

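Expression was measured with biotin-labelled whole-transcript targets, per the labels' protocols. The authors deposited 1 log2 value per probe set and array; the scale was read from the values, which run from 1.55 to 12.4. Partek is named without version or role, per the submitters' processing notes; background correction, normalization and genome build: not given in the sources used here. Array medians were 4.60, 4.54 and 4.55 in order of dose. Of 25206 probe sets, 23185 had 1 gene symbol in the platform annotation and 2021 had none; of 200 listed symbols, 190 matched. Differences were taken gene by gene with pandas 2.3.3; with 1 array per dose no test was possible, and the number of arrays limits the precision. Depth does not apply, and detection could not be assessed. The counting was checked on simulated data.

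All members are named, and from each other adhesion list the 4 genes past the minimum with the largest difference. Members, lists and this rule were chosen with earlier results of these data known. Alternatives were other level minimums, fold sizes of 1.5 and 3, quantile normalization, median centring and loess (span 0.3, statsmodels 0.14.6).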

Additional observations from a re-analysis of the deposited data

How the results depend on the processing

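No paired analysis was possible because there was a single array for each dose. The count of 1 member at least 2-fold lower at 2.5 Gy than at 0.02 Gy became 0 after quantile normalization, 0 at 3-fold and 0 with the minimum raised to the 75th percentile (5.46), which Itga4 does not reach. The other member counts stayed at 0 under the alternatives run, and each member median moved by less than 0.1. Of 90 member differences under 3 scalings, 16 moved by 0.1 or more, up to 0.23 for Cxcr4, and 6 changed sign (Selplg and Itga6 2 each, Cxcr4 and Itgb1 1 each). Of 90 medians of the other lists, 13 moved by 0.1 or more; the cause was not tested. The 154 higher and 132 lower genes of all genes at 0.02 Gy became 259 and 272 with no minimum, 94 and 56 with the raised one, 869 and 547 for 1.5-fold, and 20 and 37 for 3-fold. The 133 and 67 at 2.5 Gy became 218 and 148, then 84 and 29, then 704 and 399, then 32 and 13. The 167 and 123 between doses became 284 and 231, then 84 and 68, then 666 and 657, then 45 and 21. Fewer or more genes tested, or the fold size, sets these by construction. Signal over background is not known, which limits most the genes near or below the minimum (Itga9, Vcam1 and Itgb2). The limit extends to Itga5, at 4.90, 5.08 and 5.10 in order of dose, and to Itga4 at 2.5 Gy (4.83). These values lay below the mean of the B cell marker Pax5, 5.23, and the 2-fold difference of Itga4 rests on one of them. Genes of the other lists also had values below that mean, among them Itgb1bp1, Selp, St3gal6, Itgam and Cxcl12, and the same limit covers them.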
